A study of Triticum aestivum with 54 samples.

Results

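TPC1 encodes the two-pore channel of wheat, and its expression was followed here as the signal of a single probe set, 1 of 61115 on the Affymetrix Wheat Genome Array. The probe set is paired with gene LOC543074, 1 of 771 genes that the annotation pairs with the array, for which the names TPC1 and TaTPC1 are given, and no other probe set is annotated as TPC1 or shares its cluster number. It was chosen by its identifier with its measured levels in all 54 arrays already known. Every level and difference of TPC1 below is therefore a description without a test. The main comparisons are given with a standard error. Steps between generations, differences of AT2 from a single parent and values under other settings are given without it. Expression was measured in 9 genotypes and 2 tissues, with 3 arrays for each genotype and tissue.

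The diploids were TL05 of Aegilops longissima, which carries the S genome and served as mother of the cross, and TMU06 of Triticum urartu, the father, which carries the A genome. A 1:1 mixture of their RNAs, the in vitro "hybrids", is called Mix. AT2 is a single synthetic allotetraploid line made from both parents by crossing and colchicine doubling, and was sampled at the selfed generations S5, S6, S7 and S8. The natural tetraploids were TD, a wild ssp. dicoccoides, and TTR13, a domesticated ssp. durum, both with the A and B genomes and each represented by 1 line. All plants grew in the same chamber conditions without treatment. The leaf was the second leaf of seedlings aged 3 weeks, and the young inflorescence was taken at booting. Each array carried RNA of several pooled plants, but whether the 3 Mix arrays go back to different pools is not given in the sources used here. Genotypes were read from the array titles, because the labels' genotype entry is AT2 throughout.

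Two-pore channels sit in the membrane of the plant vacuole, the main calcium store of the cell. In Arabidopsis, where the gene is best known, TPC1 is opened by voltage and by cytosolic calcium, carries the slow vacuolar cation current, takes part in the calcium signal that travels through the plant after salt or wounding, and when overactive raises the wound hormone jasmonate. These roles are background from that species and were not measured here. The array cannot tell the subgenome copies of a gene apart, so each value below is the summed signal of all copies that the probes detect. Whether the probes bind the TPC1 transcripts of the S, A and B genomes alike was not tested.

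The values are log2 expression levels after robust multichip averaging (RMA), so that a difference of 1 is a 2-fold change. The array medians lay between 4.69 and 4.92. Correlations between arrays of a genotype, taken across probe sets that are not independent, were 0.964 to 0.996 for leaf and 0.984 to 0.996 for young inflorescence. As a check of the tissue labels, 5 of 6 probe sets of nuclear photosynthesis genes (PRK, PsbO, PsbP and petC) were higher in every leaf array than in every young inflorescence array, as 10.7% of 29906 probe sets were. The 4 probe sets of the anther genes raftin1a and raftin1b read 2.54 to 6.68 in leaf, against 2.26 to 5.54 in young inflorescence, and overlapped between the tissues, so no marker at hand defines the inflorescence. In bulk tissue, more cells that express a gene and more RNA per cell cannot be told apart.

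TPC1 was expressed at a low to moderate level. Its log2 level ran from 5.81 to 8.14 over the 27 leaf arrays, with a median of 6.37, and from 5.63 to 6.81 over the 27 young inflorescence arrays, with a median of 6.17. It lay above the array median in all 54 arrays. Between 64.1% and 88.1% of the probe sets of an array were dimmer than TPC1, with the lowest rank in an S6 inflorescence and the highest in a TD leaf. Probe sets were kept for analysis by the 65th percentile of each array. In young inflorescence TPC1 lay below it in S6 replicate 3 (5.633 against 5.700) and S8 replicate 3 (5.698 against 5.705). The arrays of a genotype varied by 0.06 to 0.27 in leaf (SD, n = 3), and in young inflorescence by 0.04 to 0.25.

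**Figure D1:**
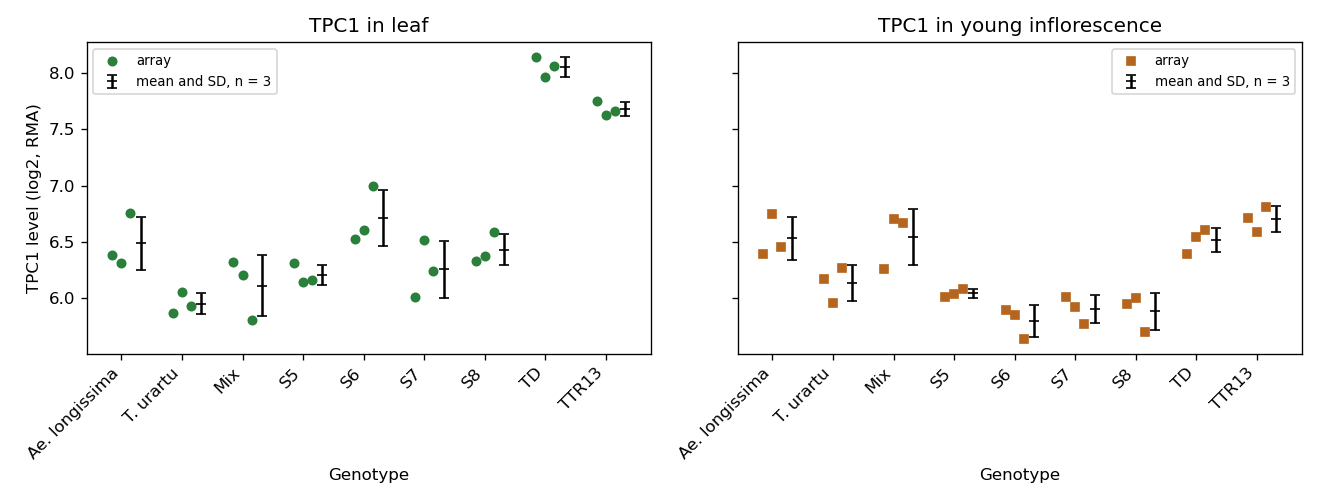
Log2 level of TPC1 (y axis) in each array of 9 genotypes (x axis) in leaf (left) and young inflorescence (right), with the mean and SD of the 3 arrays beside them. The TD and TTR13 leaf arrays sit between 7.63 and 8.14, above all other arrays, and the AT2 inflorescence arrays sit between 5.63 and 6.08, below all Mix inflorescence arrays.

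The widest gap in the TPC1 levels was in leaf, between the natural tetraploids and everything else. TD read 8.14, 7.96 and 8.07 on its 3 leaf arrays. TTR13 read 7.75, 7.63 and 7.66. All 6 of these values were above all 21 others, the nearest being 6.99 in an S6 leaf, which left a gap of 0.63. Of the probe sets analysed for leaf (25940 in all), 11.9% had natural tetraploid arrays that lay all above or all below the other 21.

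Against Mix, which read 6.32, 6.21 and 5.81 in leaf, TPC1 was higher by 1.94 in TD (3.85-fold) and by 1.57 in TTR13 (2.96-fold), with a standard error of 0.15 from limma for both. In these comparisons 5.87% and 7.73% of the analysed probe sets lay further in the same direction. The 3 arrays of TD and of TTR13 did not overlap with Mix, which was true in leaf of 68.9% of all analysed probe sets for TD and 63.7% for TTR13, so that the absence of overlap by itself is no mark of TPC1. Within the natural tetraploids the wild TD was higher than the domesticated TTR13 by 0.38 (standard error 0.15), again without overlap, as for 50.7% of probe sets.

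In young inflorescence the natural tetraploids did not stand apart. TD read 6.39, 6.54 and 6.60 there, and TTR13 read 6.71, 6.59 and 6.81. Mix read 6.25, 6.71 and 6.67 and overlapped with both. The differences from Mix were -0.03 for TD and 0.16 for TTR13 (standard error 0.12), and the corresponding shares of probe sets without overlap were 61.1% and 66.9%. TTR13 lay 0.19 above TD (standard error 0.12) with overlapping arrays, while 63.4% of probe sets did not overlap, and the order of the means was thus the opposite of that in leaf. With each array centred on its median, this difference was 0.24 and the arrays no longer overlapped, whereas quantile normalization brought it down to 0.06. TTR13 minus Mix was 0.02 without Mix replicate 1 and also after quantile normalization, and TD minus Mix ran from -0.17 to 0.05 as single arrays were left out. The 6 natural tetraploid arrays also overlapped with the other 21, which was not so for 14.1% of the 25323 probe sets analysed in this tissue. A leaf signal above all other genotypes was found at 2277 probe sets, and 1486 of them (65.3%) stood above all others in young inflorescence as well, unlike TPC1.

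**Figure D2:**
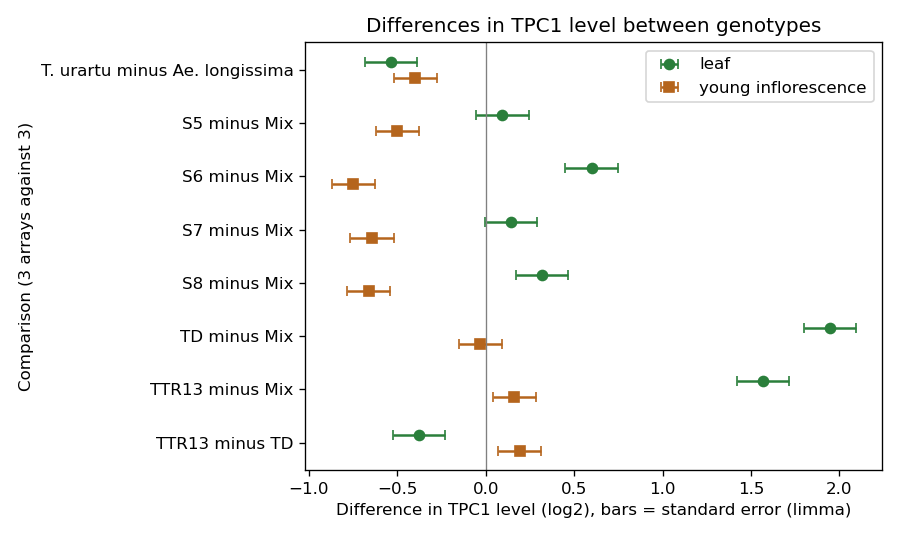
Differences in TPC1 level on the log2 scale (x axis) for 8 comparisons of 3 arrays against 3 (y axis), with limma's standard error, in leaf (circles) and young inflorescence (squares). TD and TTR13 lie 1.94 and 1.57 above Mix in leaf, and S5 to S8 lie 0.50 to 0.75 below Mix in young inflorescence.

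Between the diploid parents, TPC1 was lower in T. urartu in both tissues. In leaf Ae. longissima read 6.39, 6.31 and 6.76, and T. urartu read 5.87, 6.05 and 5.93. In young inflorescence they read 6.39, 6.74 and 6.45, and 6.17, 5.95 and 6.27. The arrays of both species did not overlap in either tissue. The difference was -0.53 (1.45-fold, standard error 0.15) in leaf and -0.40 (1.32-fold, standard error 0.12) in young inflorescence. A parental gap without overlap was common, at 64.3% of the analysed probe sets for leaf and at 63.8% for young inflorescence, and 22.8% and 21.7% of those analysed lay further toward Ae. longissima than TPC1 did.

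Mix gives the level that the parental RNAs read when hybridised together. In leaf it lay 0.11 below the mean of the parents (standard error 0.13), and 1 of its 3 arrays was below all parental arrays. In young inflorescence it lay 0.21 above the mean of the parents (standard error 0.11), close to Ae. longissima, from which it differed by 0.01. Both Mix groups overlapped with both parents. The leaf difference was 0.045 without Mix replicate 3, the low array, -0.21 without Mix replicate 1 and -0.04 without Ae. longissima replicate 3, so its sign rests on single arrays. The inflorescence difference ran from 0.13 without Mix replicate 2 to 0.36 without Mix replicate 1.

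In young inflorescence TPC1 was lower in AT2 than in Mix at every generation. S5 read 6.01, 6.04 and 6.08. S6 read 5.90, 5.85 and 5.63. S7 read 6.01, 5.92 and 5.77. The S8 arrays read 5.94, 6.004 and 5.70, and all 12 AT2 values were below the lowest Mix value. Of the analysed probe sets, 22.8% likewise had 12 AT2 arrays that did not overlap with the 3 Mix arrays. The differences from Mix were -0.50, -0.75, -0.64 and -0.66 from S5 to S8, each with a standard error of 0.12, which are 1.41-fold, 1.68-fold, 1.56-fold and 1.58-fold. Probe sets that lay further below Mix were 8.83%, 4.40%, 6.60% and 5.27% of those analysed. Arrays of AT2 and Mix did not overlap for 54.2% of probe sets in S5, 45.9% in S6, 47.5% in S7 and 45% in S8. These 4 comparisons share the same 3 Mix arrays. The lowest array of S6 and that of S8 lay below the 65th percentile of their array, so these levels are near the filter.

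Set against the parents, the AT2 inflorescence was nearer to T. urartu, the parent with less TPC1. Each generation was below Ae. longissima without overlap, with differences from -0.74 to -0.49, and the shares of probe sets without overlap in these 4 comparisons were 68.6%, 61.4%, 62.4% and 61.8% from S5 to S8. From T. urartu the means differed by -0.09 for S5, -0.34 for S6, -0.23 for S7 and -0.25 for S8, and of these only the S6 arrays did not overlap with it, against shares of 60.2%, 55.3%, 54.6% and 55.1%. The number of arrays below all 6 parental arrays was 0 of 3 at S5, 3 of 3 at S6, 2 of 3 at S7 and 2 of 3 at S8. With the mean of the parents' log2 levels (6.33) in place of Mix, the differences were -0.29, -0.54, -0.43 and -0.45 from S5 to S8, so the S5 difference in particular depends on the choice of control.

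In leaf TPC1 of AT2 stayed within or close to the parental range. S5 read 6.31, 6.15 and 6.16. S6 read 6.53, 6.61 and 6.99. S7 read 6.01, 6.52 and 6.24. The S8 arrays read 6.33, 6.37 and 6.59, and 1 AT2 array, of S6, was above all parental arrays while none of the 12 was below them. Relative to Mix, S5 was higher by 0.09, S6 by 0.60, S7 by 0.15 and S8 by 0.32, each with a standard error of 0.15. S6 and S8 did not overlap with Mix, S8 by a narrow margin that was lost after quantile normalization, and S5 and S7 overlapped with it. Without overlap were 57.3%, 49.2%, 45% and 58.4% of probe sets from S5 to S8. Taken as 12 arrays, AT2 overlapped with the 3 Mix arrays, which 14% of probe sets did not. Without Mix replicate 3 the differences were -0.06, 0.45, -0.01 and 0.16 from S5 to S8. With the mean of the parents' log2 levels (6.22) in place of Mix they were -0.01, 0.49, 0.04 and 0.21, and S6 had the largest difference of the 4 generations in each case.

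The 4 generations were not in a steady order. In leaf S6 differed from S5 by 0.50, S7 from S6 by -0.45 and S8 from S7 by 0.17, so that the mean went up, down and up again. In young inflorescence the same steps were -0.25, 0.11 and -0.02. The generation with the highest leaf mean, S6, had the lowest inflorescence mean. The S6 arrays overlapped with those of S8 in leaf, and with those of S7 and S8 in young inflorescence. The arrays of S7 and S8 overlapped in both tissues.

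AT2 was lower than the natural tetraploids in both tissues. The mean of the 4 generations was 6.40 in leaf against 7.87 for TD and TTR13, a difference of -1.47 (2.76-fold, standard error 0.09). In young inflorescence it was 5.90 against 6.61, a difference of -0.70 (1.63-fold, standard error 0.07). Both standard errors hold only the spread between arrays of the same group. The spread between the 4 generations of the single AT2 line, and that between TD and TTR13, is not in them. The 12 AT2 arrays lay below the 6 natural tetraploid arrays without overlap in leaf, between 6.01 and 6.99 against 7.63 and 8.14. They did so in young inflorescence too, between 5.63 and 6.08 against 6.39 and 6.81. Such a separation was found, in either direction, for 23.3% of probe sets among the leaves and for 29.2% among the inflorescences.

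The order of the 9 genotypes therefore differed between the tissues. In leaf it ran from TD over TTR13, S6, Ae. longissima, S8, S7, S5 and Mix to T. urartu. Of the 8 steps between neighbours only the first, from TD to TTR13 (0.38), and the second, from TTR13 to S6 (0.97), had arrays without overlap, the latter as 60.4% of probe sets did. The remaining steps were 0.05 to 0.22, none larger than the SD of the more variable neighbour. In young inflorescence the order ran from TTR13 over Mix, Ae. longissima, TD, T. urartu, S5, S7 and S8 to S6. There the only step without overlap was that from TD to T. urartu (0.38), a comparison in which 68.8% of probe sets did not overlap. Mix, however, with its lowest array at 6.25, overlapped with T. urartu, whose highest array was 6.27. The other neighbours overlapped, with steps of 0.01 to 0.16.

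Within a genotype the leaf and the inflorescence are read by the same probes from the same alleles. TPC1 was lower in young inflorescence than in leaf in both natural tetraploids, with differences of -1.54 in TD (2.91-fold) and -0.97 in TTR13 (1.97-fold). In AT2 the differences were -0.16 in S5, -0.92 in S6, -0.36 in S7 and -0.55 in S8, and the standard error of each was 0.14. In all 6 tetraploid groups the leaf arrays were above the inflorescence arrays without overlap. For S7 the nearest arrays were less than 0.001 apart, and with median centring S5 and S7 overlapped. The same was true, in this direction and in all 6 groups, of 21.6% of the 29906 probe sets analysed in at least 1 tissue.

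**Figure D3:**
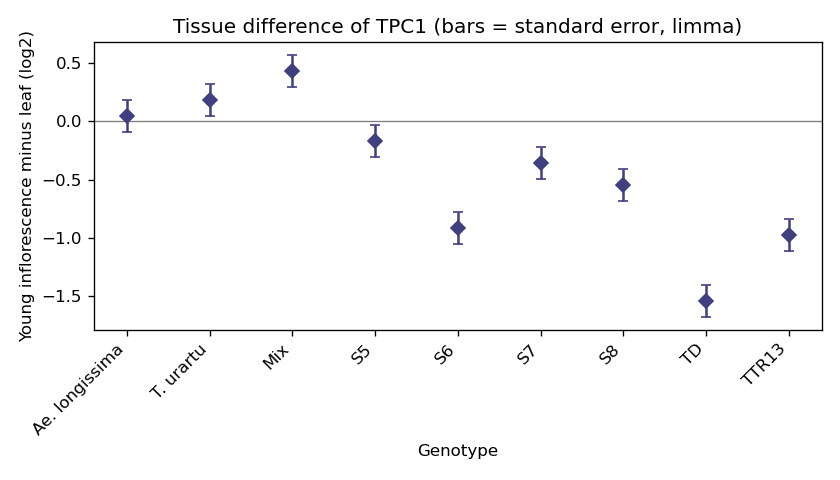
Young inflorescence minus leaf for TPC1 on the log2 scale (y axis) in 9 genotypes (x axis), with limma's standard error. The 6 tetraploid groups lie between -1.54 and -0.16, and both diploids and Mix lie between 0.04 and 0.43.

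In the diploids and in Mix the tissues overlapped. Their differences between young inflorescence and leaf were 0.04 in Ae. longissima, 0.18 in T. urartu and 0.43 in Mix (standard error 0.14). The difference in Mix was 0.28 without its leaf replicate 3. The difference between the tissue gaps of these groups and of the tetraploids was not tested. Differences between the tissues were frequent on the whole array: the arrays did not overlap for 74.9% of probe sets in Ae. longissima, 73.4% in T. urartu and 81.5% in Mix, so TPC1 was there in the minority. The shares in AT2 were 79.5% for S5, 75.9% for S6, 81.5% for S7 and 76.1% for S8, and those in the natural tetraploids were 82.4% in TD and 83.9% in TTR13.

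The pattern of other probe sets was compared with TPC1 by Pearson correlation over the 18 means of genotype and tissue, as a description. The points share arrays and normalization, and the median over the 29906 probe sets was -0.11. The 3 most alike were Ta.1988.3.S1_at (0.94), Ta.2655.3.S1_x_at (0.94) and TaAffx.81904.1.S1_at (0.94), which carry no gene name here. All 3 had their highest means in TD and TTR13 leaf, as TPC1 did. For Ta.1988.3.S1_at these means were 13.44 and 13.65 against at most 7.44 in the 16 other groups. Without the leaf of TD and TTR13, the correlations over the other 16 means were 0.76, 0.83 and 0.72.

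Among the 121 other probe sets with a named gene, the highest correlation was that of GSTZ1, a zeta-class glutathione transferase (Ta.237.1.S1_at, 0.88). Its means were 7.54 in TD leaf and 8.73 in TTR13 leaf, and at most 3.55 elsewhere. LTP3, a lipid transfer protein gene (Ta.1282.4.S1_at), followed at 0.79, with means of 9.80 and 9.21 in these leaves and at most 6.75 elsewhere. Over the other 16 means the correlation of LTP3 was 0.16, so that its likeness rests on the leaf of TD and TTR13. For GSTZ1 the correlation over the other 16 means was 0.62. These GSTZ1 means lay only between 2.74 and 3.55, below the array medians (4.69 to 4.92), so that value describes dim signals.

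GLU1A, a beta-glucosidase gene (Ta.4601.2.S1_at), had a correlation of 0.75, and DMAS1, whose product makes the iron chelator deoxymugineic acid (Ta.5335.3.S1_a_at), of 0.70. Both were also high in the inflorescence of the natural tetraploids, with means elsewhere reaching 10.59 and 8.66, which TPC1 was not. The histone gene wcH2A-3 (Ta.27192.1.S1_s_at) had a correlation of 0.71. The lowest correlations were those of the tubulin gene Tubb5 (Ta.214.2.A1_x_at, -0.55) and of the histone gene wcH2B-8 (Ta.7378.18.S1_x_at, -0.51), which are far weaker. Over the other 16 means the correlations were 0.50 for GLU1A, 0.59 for DMAS1, 0.34 for wcH2A-3, 0.11 for Tubb5 and -0.54 for wcH2B-8.

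**Figure D4:**
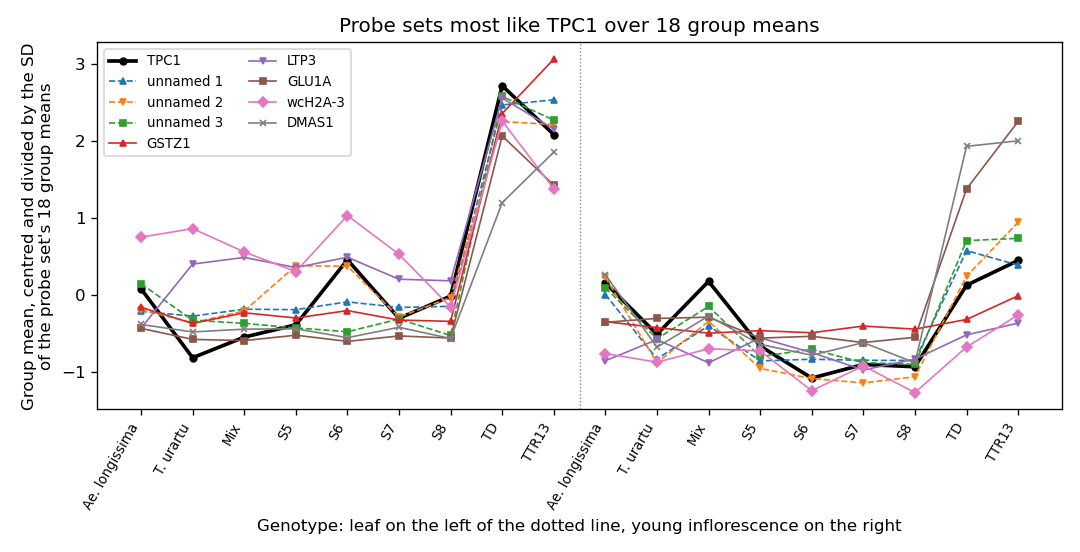
Means of TPC1 (thick black line) and of 8 probe sets with similar patterns over 18 groups (x axis, leaf then young inflorescence), each centred and divided by its own SD (y axis, SD units). "Unnamed 1" to "unnamed 3" are Ta.1988.3.S1_at, Ta.2655.3.S1_x_at and TaAffx.81904.1.S1_at, and all lines peak in TD or TTR13 leaf except GLU1A and DMAS1, which are highest in TTR13 inflorescence.

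Other calcium channels, pumps and sensors and other transporters of the vacuolar membrane were looked for by name. Of the 61115 probe sets 200 carry a named gene, and besides TPC1 the calcium list matched 0 of them and the vacuolar list 0. The only other ion pump singled out, after the annotation had been seen, was ha1, a proton pump gene of the plasma membrane that energises ion uptake. Its 3 probe sets were higher in every leaf array (12.06 to 13.13) than in every young inflorescence array (8.73 to 9.98). The same held for 10.7% of 29906 probe sets. This tissue gap was present in all 9 genotypes of ha1, whereas that of TPC1 was not.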

How the data were processed

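RMA, which the authors ran on the raw array files, subtracts background, equalises array quantiles and summarises the probes of a set, and the deposited values of the 54 arrays are on its log2 scale, and the submitters' notes also name MAS5 and limma without versions. Of the value columns, 0 had no matching sample. Each tissue (27 arrays), and for tissue differences all 54, was fitted with 1 mean per genotype by limma 3.58.1 in R 4.3.3, over probe sets where all 3 arrays of at least 1 genotype exceeded the 65th percentile of their array, since present calls were not used here. Leaf kept 25940 probe sets and young inflorescence 25323. The number of arrays limits the precision. The errors rest on 1 spread between arrays that all genotypes of a fit share, not on the SD of the groups compared. For Mix this may not be a spread between pools. Arrays do not overlap where all values of a group lie above all of the other. TPC1, the gene lists and the comparisons were chosen with earlier results of these data known. By rule the text names TPC1, the 3 most correlated probe sets, and the 5 highest and 2 lowest with a named gene. Names came from the platform annotation, updated through RefSeq (IWGSC CS RefSeq v2.1). No genome build is given for the values, so no coordinates are printed. Alternatives were median centring, quantile normalization, mid-parent values, a replicate block and leaving out each array. The fit was tested on simulated data, and plots were drawn with matplotlib. Pyrosequencing and plant traits were not analysed here.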

Additional observations from a re-analysis of the deposited data

Results flagged for a closer look

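At S6 the 3 AT2 arrays lay above the 3 Mix arrays in leaf (0.60) and below them in young inflorescence (-0.75). At S8 they also lay above Mix in leaf (0.32) and below it in young inflorescence (-0.66). These opposite directions were what drew attention to both generations, and the difference between the tissues was not tested. The mean differences of S5 (0.09 in leaf, -0.50 in young inflorescence) and S7 (0.15 and -0.64) had the same signs. Their leaf arrays, however, overlapped with Mix. The nearest S8 and Mix leaf arrays were only 0.008 apart, and they overlapped after quantile normalization. In leaf 49.2% of probe sets at S6 and 58.4% at S8 did not overlap with Mix. In young inflorescence the shares were 45.9% and 45%. With the mean of the parents' log2 levels in place of Mix, the leaf differences were 0.49 at S6 and 0.21 at S8. Those in young inflorescence were then -0.54 and -0.45.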

How the results depend on the processing

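Over 31 differences of TPC1, the scalings of the arrays, the replicate block and the mid-parent controls gave 121 values. Of these, 106 moved by less than the pooled SD and 15 by more. The 106 include the replicate block, which cannot change a difference in this balanced design. Every mid-parent value in young inflorescence was among the 15, so the size of each difference from Mix there depends on the control. With the mean of the parents' log2 levels as the control in young inflorescence, the differences were -0.29 at S5, -0.54 at S6, -0.43 at S7, -0.45 at S8, -0.43 for the mean of AT2, 0.18 for TD and 0.37 for TTR13. With the log2 of the parents' mean linear level they were -0.31, -0.56, -0.45, -0.47, -0.45, 0.16 and 0.35. In leaf the mid-parent controls gave -0.01 and -0.05 for S5, turning its sign, 0.04 and 0.005 for S7, 0.21 and 0.18 for S8, and 0.18 and 0.15 for the mean of AT2. Quantile normalization gave -1.22 for young inflorescence minus leaf in TTR13. Leaving out 1 array moved none of the 234 values by more than the pooled SD. With 3 arrays per group and the SDs found here no such move was possible, so this count is no measure of stability. Small differences did turn sign. S5 and S7 minus Mix in leaf were -0.06 and -0.01 without Mix replicate 3. Mix minus the mid-parent in leaf was 0.045 without the same array. TD minus Mix in young inflorescence was 0.03 to 0.05 without Mix replicate 2 or 3 or TD replicate 1. The tissue difference of Ae. longissima was -0.06 to -0.005 without inflorescence replicate 2, leaf replicate 1 or leaf replicate 2. That tissue difference was also -0.02 after quantile normalization. Without Mix leaf replicate 3 the mean of AT2 was 0.14 above Mix in leaf, and without S7 leaf replicate 2 the tissue difference of S7 was -0.23; that of T. urartu was 0.11 without its inflorescence replicate 3. Same-numbered arrays of different genotypes did not deviate together on average (mean correlation 0.01 in leaf and 0.0009 in young inflorescence). Their correlations ran from -0.26 to 0.26 in leaf and from -0.24 to 0.23 in young inflorescence. In this balanced design the replicate block left each difference as it was (-0.64 for AT2 minus Mix in young inflorescence, 1.94 for TD in leaf). Of the 10 probe sets most like TPC1, 3 were still among the 10 with tissue means subtracted, 7 with quantile normalization and 0 by Spearman correlation. Tests of the calcium and vacuolar lists were not run because they have no member other than TPC1.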
